A study of Homo sapiens with 5 samples.

Results

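Besides S100A7, S100A8 and S100A9, 10 S100 genes were followed in MDA-MB-468, an established cell line derived from a triple-negative human breast tumour: S100A2, S100A3, S100A4, S100A6, S100A10, S100A11, S100A13, S100A14, S100A16 and S100P. They were chosen by name, are 10 of the 33538 genes in the count matrix, and each of them was detected in every sample. The study raised FOSL1, the gene of the AP-1 transcription factor subunit FRA-1, by gain of function in 2 systems, called HA and VPR in the labels and not spelled out there. The HA system has a control sample and an HA FOSL1 sample, and the VPR system a control and FOSL1 samples made with the guide RNAs gRNA2 and gRNA3. Every sample carried its own hashtag antibody and was run in 1 pooled single-cell library, and each group held 1 sample. Differences between samples therefore have no replicate check, and the 95% intervals below cover counting error only. All 5 samples come from the same line. The labels do not say whether any is a single clone, and their mention of 5-fluorouracil is not tied to any of these samples.

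S100 proteins are small calcium sensors with EF-hand loops that mostly work as dimers: calcium binding exposes a surface that grips a partner protein. S100A4 binds non-muscle myosin and is known for its link to cell motility and metastasis, S100A6 binds the ubiquitin-ligase adaptor CACYBP, S100A10 forms a calcium-independent complex with annexin A2 under the plasma membrane, and S100A11 pairs with annexin A1. S100A2 is a largely nuclear protein of basal epithelial cells, S100A3 is best known from the hair cuticle, S100A13 takes part in the unconventional export of fibroblast growth factor, S100A14 and S100A16 are epithelial members, and S100P binds the membrane linker ezrin. All of these genes but S100P lie in the S100 gene cluster of chromosome 1, beside genes of skin differentiation.

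Of these genes, 4 neighbours on chromosome 1 carry most of the findings, so their upstream sequences are shown first. They run in the order S100A6, S100A4, S100A3 and S100A2 and are all on the minus strand. In RefSeq coordinates (GRCh38.p14) S100A6 spans chr1:153534599-153535991, S100A4 chr1:153543621-153545806, S100A3 chr1:153547329-153549258 and S100A2 chr1:153561108-153565844. The sequences are the 250 bases before the RefSeq start, 5′ to 3′ on the gene's strand, and S100A2 has a further RefSeq start that is not shown. They lie at chr1:153535992-153536241 for S100A6, chr1:153545807-153546056 for S100A4, chr1:153549259-153549508 for S100A3 and chr1:153565845-153566094 for S100A2. Capitals mark a match to TGANTCA, where N is any base, or to TATAAA, the core of a TATA box. The letters AP-1 is known to prefer are TGANTCA with C or G at N.
S100A2 upstream: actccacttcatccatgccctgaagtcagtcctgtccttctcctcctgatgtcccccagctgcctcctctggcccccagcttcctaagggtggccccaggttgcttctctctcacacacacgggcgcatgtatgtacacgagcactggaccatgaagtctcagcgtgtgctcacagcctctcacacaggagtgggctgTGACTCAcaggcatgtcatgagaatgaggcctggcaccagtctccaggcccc
S100A3 upstream: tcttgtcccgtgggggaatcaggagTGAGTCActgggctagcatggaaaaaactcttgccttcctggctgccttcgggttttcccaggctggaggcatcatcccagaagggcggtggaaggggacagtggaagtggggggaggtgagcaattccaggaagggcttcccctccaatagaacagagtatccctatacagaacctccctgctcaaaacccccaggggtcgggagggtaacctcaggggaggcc
S100A4 upstream: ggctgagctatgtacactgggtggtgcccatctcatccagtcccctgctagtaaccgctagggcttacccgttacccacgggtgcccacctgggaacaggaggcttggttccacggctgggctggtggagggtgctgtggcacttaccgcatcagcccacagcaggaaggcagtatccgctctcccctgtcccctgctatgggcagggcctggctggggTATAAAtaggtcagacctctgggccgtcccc
S100A6 upstream: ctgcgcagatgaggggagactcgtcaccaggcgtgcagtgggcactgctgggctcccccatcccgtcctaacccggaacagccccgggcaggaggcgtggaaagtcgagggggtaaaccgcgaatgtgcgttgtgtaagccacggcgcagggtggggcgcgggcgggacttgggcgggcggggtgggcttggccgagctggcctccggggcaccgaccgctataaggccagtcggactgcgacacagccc
The search covered the 14 RefSeq promoters of the 10 genes, each from 250 bases before to 50 bases after a start. TGANTCA reads the same on both strands, and it was found in 2 of the 14, as TGACTCA 52 bases before the start of S100A2 and as TGAGTCA 225 bases before that of S100A3. With any base at N it occurs in 7.71% of 35116 RefSeq promoters of this length, and the share with C or G there was not counted. TATAAA on the gene's strand was found in 3 of the 14, at 31 bases before the start of S100A4, 28 before that of S100P and 29 before the second start of S100A13, against 7.33% of all promoters. On the other strand (TTTATA) it was in 0 of the 14, against 5.83% of all. The motifs share no overlapping match here, and a match describes these letters only.

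After filtering, the samples held 1826 to 4299 cells and 42058533 to 85556699 UMIs, the unique transcript tags that were counted, and no cell barcode was shared between samples. HA FOSL1 cells were the deepest, at a median of 20768.5 UMIs against 15401.5 to 18121 in the other samples, and had the lowest median mitochondrial share, 9.80% against 10.5% to 11.5%. FOSL1 checked the labels: it stood at 8.96 CPM (UMIs scaled to an equal total per sample) in the HA control, 63.5 in HA FOSL1, 8.91 in the VPR control, 100.5 under gRNA2 and 94.3 under gRNA3. Only 3′ tags were counted, so a construct's RNA enters the HA value only if it ends like the native transcript. As markers of the labelled line, EPCAM stood at 343 to 383 CPM and PGR at 0 in all samples. ESR1 and ERBB2, listed with PGR, were detected in every sample. ESR1 stood at 1.596 CPM in the HA control, 4.87 in HA FOSL1, 1.83 in the VPR control, 2.91 under gRNA2 and 2.63 under gRNA3. ERBB2 stood at 9.41 to 13.5 CPM and was lower in each FOSL1 sample than in its control. The immune list and the fibroblast and endothelial list summed to at most 18.8 and 5.05 CPM. Most of the first was CD14, at 13.6 to 18.6 CPM, and most of the second COL1A1, at 2.21 to 4.30. PTPRC stood at 0.0223 to 0.357 and DCN at 0. Of 7 epithelial markers, 3 were at least 1.5-fold higher in HA FOSL1 than in its control (KRT7, KRT8 and KRT18) and 0 in either guide sample. What part these differences in depth and keratin level have in the S100 values of the HA arm was not tested, beyond the equal-depth values given below.

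Together the 10 genes made up 0.642% of all UMIs in the HA control and 1.15% in HA FOSL1. In the VPR system they made up 0.721% in the control, 0.998% under gRNA2 and 1.01% under gRNA3. S100A6 alone gave between 39.7% and 46.9% of these UMIs in every sample. Each UMI is 1 tag near the 3′ end whatever the transcript's length, so CPM needs no length correction. Tags may still be captured or assigned unequally between genes, so the order of genes below is one of tags. S100A6 was the most abundant of the 10 in every sample and ranked 46th among all genes in the HA control, 14th in HA FOSL1, 38th in the VPR control, 18th under gRNA2 and 19th under gRNA3. S100A11 came next, between 1342 and 1882 CPM, and S100A10 followed between 781 and 1527 CPM. S100A16, S100A4, S100A13, S100A14 and S100A2 formed a middle group between 171 and 956 CPM, in which S100A4 and S100A2 changed places between samples. S100A3, at 16.01 to 56.4 CPM, and S100P, at 7.59 to 24.3 CPM, were the lowest, and the plot of levels shows a gap of several fold between them and the rest.

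**Figure D1:**
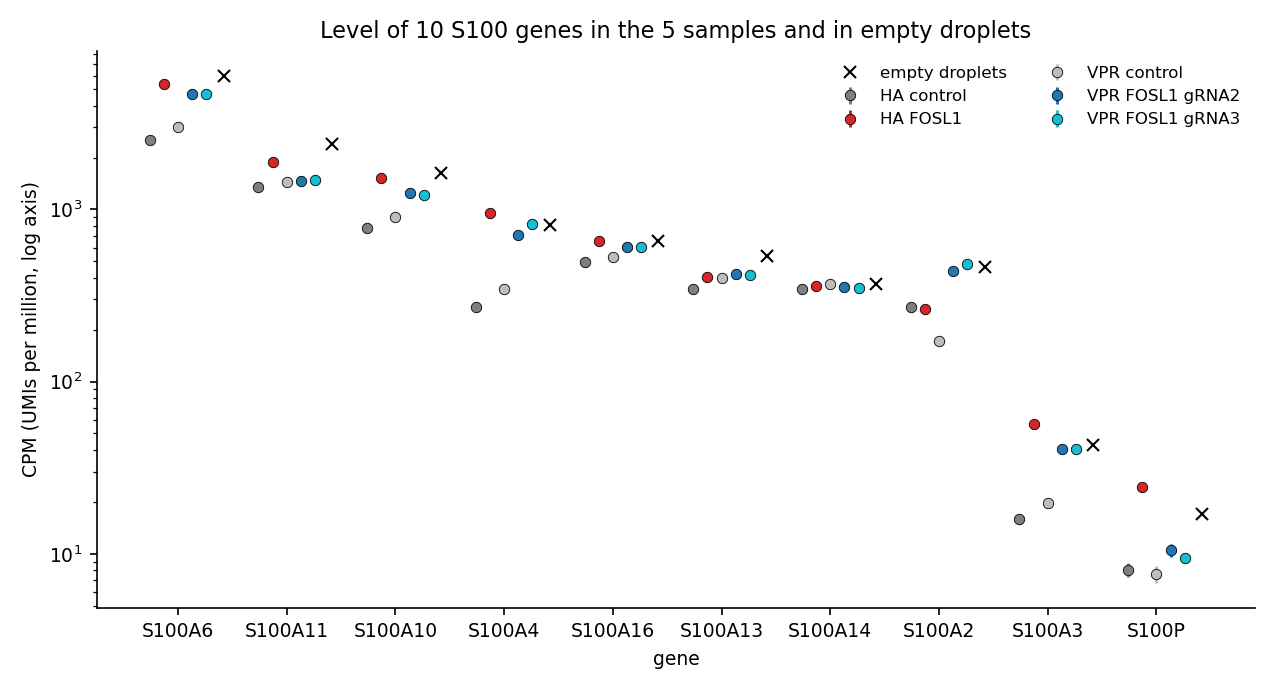
Level of the 10 S100 genes (horizontal axis, ordered by level) in CPM on a log axis. Circles are the 5 samples, lines 95% intervals of counting error, and crosses the free RNA of empty droplets. S100A4 stands at 956 CPM in HA FOSL1 against 271 in its control, while S100A14 keeps between 344 and 367 CPM in all 5 samples.

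Set against the control of its own system, each FOSL1 sample had 4 S100 genes that were at least 1.5-fold higher at a mean of at least 20 CPM, and 0 that were as much lower. In the HA arm these were S100A3, S100A4, S100A6 and S100A10, beside 5.97% of all genes at that size and level. With gRNA2 they were S100A2, S100A3, S100A4 and S100A6, beside 0.921% of all genes, and with gRNA3 the same symbols, beside 0.958%. At that size 2.19% of all genes were lower in the HA arm, 0.591% under gRNA2 and 0.836% under gRNA3. S100P fell under 20 CPM, so 9 of the 10 could be counted. Both guide samples share the VPR control. Over the 9 genes the log2 ratio of CPM + 1 had a median of 0.49 for HA, 0.46 for gRNA2 and 0.42 for gRNA3, beside medians of 0.004, 0.009 and 0.002 over all genes at that level.

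Between the controls, 0 of these genes were 1.5-fold higher in the VPR control (0.0873% of all genes) and 1 was lower, S100A2 (0.175% of all). Of the 8 genes at 20 CPM in that pair, 7 lay above the HA control by less than that, where 61.5% of all genes did. The guide samples differed from each other by 1.5-fold in 0 of the 9 genes (0.0175% of all genes higher and 0.0698% lower with gRNA3).

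**Figure D2:**
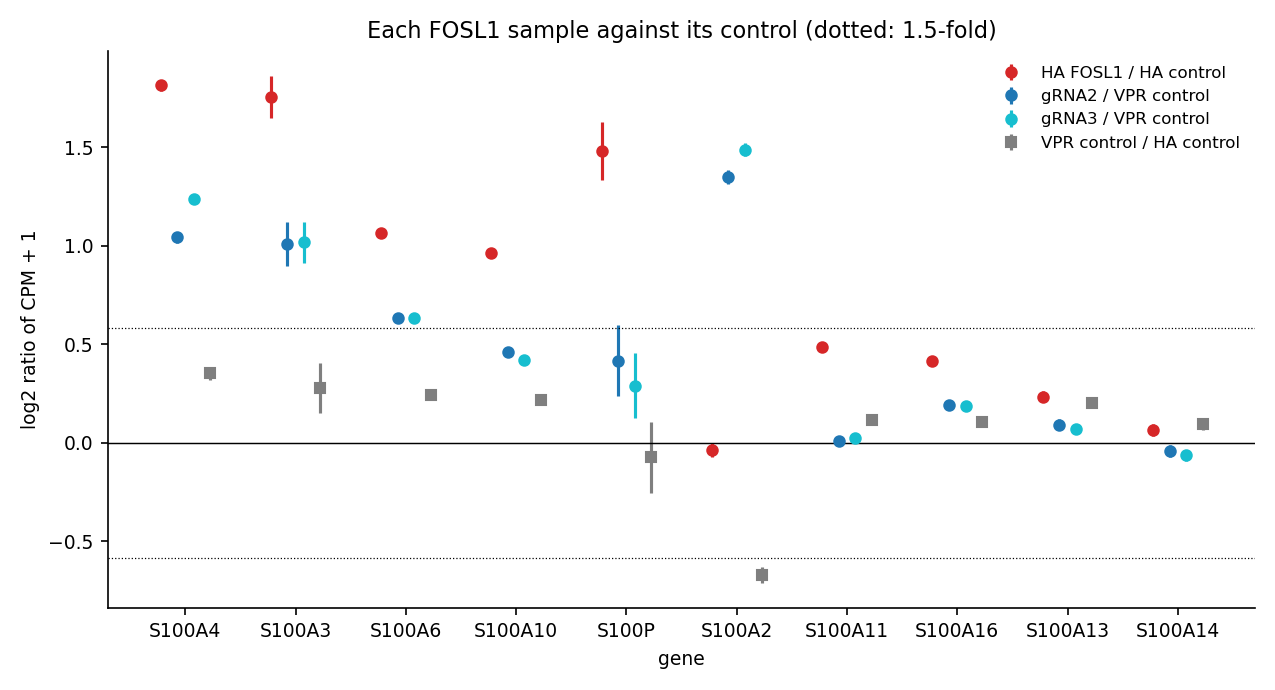
Log2 ratio of CPM + 1 (vertical axis) for each S100 gene in the 3 arms (circles) and between the controls (grey squares). Lines are 95% intervals of counting error and dotted lines mark 1.5-fold. S100A4, S100A3 and S100A6 lie above the upper line in every arm, and S100A2 lies above it with both guides but at -0.04 in the HA arm.

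The metastasis-linked S100A4 had, with S100A3, the highest ratios of the 10 in the HA arm, and the order of these 2 is within counting error. It stood at 271 CPM in the HA control, 956 in HA FOSL1, 346 in the VPR control, 715 under gRNA2 and 818 under gRNA3. Every FOSL1 sample lay above both controls, and the share of all genes that do so was not counted. The log2 ratios were 1.81 (interval 1.79 to 1.84) in the HA arm, 1.04 (1.02 to 1.07) with gRNA2 and 1.24 (1.21 to 1.26) with gRNA3, against 0.35 between the controls. In ratio rank S100A4 was 41st of 5748 genes in the HA arm, 14th of 5752 with gRNA2 and 13th of 5743 with gRNA3.

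S100A3, the hair cuticle gene next to S100A4 and far scarcer in RNA, followed the same order of samples. Its level was 16.01 CPM in the HA control, 56.4 in HA FOSL1, 19.6 in the VPR control, 40.5 under gRNA2 and 40.7 under gRNA3. Both guide samples lay within each other's intervals and apart from both controls. The HA ratio was 1.76 (1.65 to 1.86), and the guide ratios were 1.01 (0.90 to 1.12) and 1.02 (0.91 to 1.12). S100A6, the abundant ligand of CACYBP, moved less on the log scale but by far more tags. It stood at 2547 CPM in the HA control, 5320.0 in HA FOSL1, 3014 in the VPR control, 4676 under gRNA2 and 4680.4 under gRNA3. The guide samples differed from each other by 0.001 log2 (interval -0.006 to 0.009), and the ratios to the controls were 1.06 (1.05 to 1.07), 0.63 (0.62 to 0.64) and 0.63 (0.63 to 0.64).

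A model of all 5 samples, with the system as covariate and the 3 FOSL1 samples taken as repeats of 1 effect, called 3 of the 10 genes higher and 0 lower (edgeR quasi-likelihood test, Benjamini-Hochberg over 15439 genes), where it called 0.9% of all genes higher and 0.706% lower. S100A4 rose by 1.45 log2 (SE 0.17, edgeR adjusted p = 0.0402), S100A3 by 1.40 (SE 0.18, adjusted p = 0.0439) and S100A6 by 0.84 (SE 0.10, adjusted p = 0.0409), each higher in 3 of 3 arms. The fit leaves 2 residual degrees of freedom, and its p-values reflect how far the constructs and guides of 1 pool vary, not how far cultures do. The calls rest on both guide samples: without gRNA2 or without gRNA3 edgeR called 0 of the 10 and 0 genes in all, with 6 of the 10 at an unadjusted p under 0.05 each time (2614 and 2371 of all genes). The adjusted p of these 3 genes was at most 0.149 over the alternatives tried. DESeq2 called 6 of the 10 higher (4.79% of all genes), these 3 with S100A10, S100A16 and S100P, and at an unadjusted p under 0.05 edgeR had 7 of the 10 higher and 0 lower, where 4020 of 15439 genes had such a p in either direction.

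Cell by cell, S100A6 was detected nearly everywhere and S100A4 was not. After each cell was thinned to 5000 UMIs, every sample had at least 1 S100A6 UMI in 99.9% to 100% of cells, and the median was 12 UMIs in the HA control and 24 in HA FOSL1, and 15 in the VPR control and 22 with either guide. The whole distribution lay higher: the 5th percentile was 5 and 6 UMIs in the controls and 9 in each FOSL1 sample. S100A4 had a median of 1 UMI in both controls, 3 in HA FOSL1, 2 with gRNA2 and 3 with gRNA3. Its 5th percentile was 0 in every sample, so its lower end cannot be compared. Cells with at least 10 S100A4 UMIs were 0.238% of the HA control and 13.9% of HA FOSL1. In the VPR system they were 0.734% of control, 6.54% of gRNA2 and 8.56% of gRNA3 cells. Such a share rises with the mean level, and the top 5% of cells held a like share of S100A4 UMIs in all samples, 21.3% in the HA control, 23.6% in HA FOSL1, and 21.6%, 20.6% and 21.8% in the VPR control, gRNA2 and gRNA3 samples. The variance over the mean (Fano factor), which also grows with the level, was higher in the FOSL1 samples for both genes. For S100A4 it was 1.68 in the HA control and 6.54 in HA FOSL1, and 2.07, 3.63 and 4.52 in the VPR control, gRNA2 and gRNA3 samples. For S100A6 these values were 2.53, 7.26, 2.75, 5.003 and 4.75. Within a sample, cells with more S100A4 also had more S100A6, with Spearman's rho of 0.22 in the HA control, 0.49 in HA FOSL1, 0.27 in the VPR control, 0.44 under gRNA2 and 0.44 under gRNA3. These describe 1818 to 4289 cells that share a library, and depth was set equal.

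**Figure D3:**
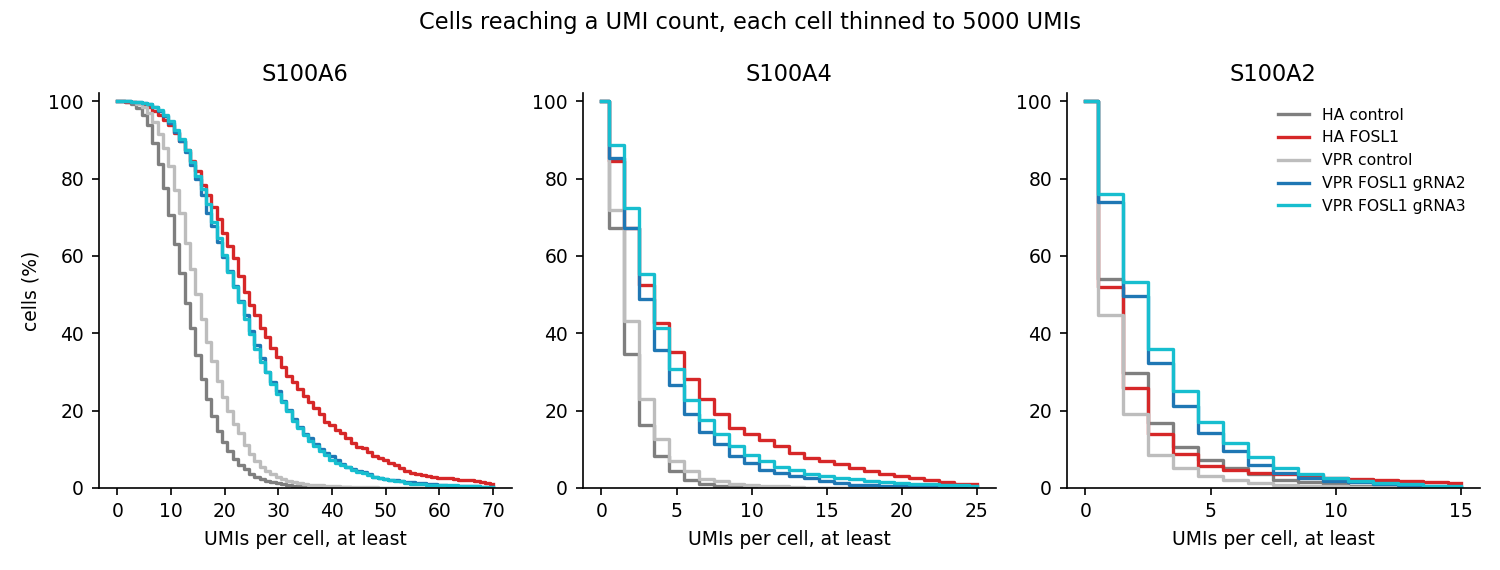
Share of cells (vertical axis, %) with at least a given number of UMIs (horizontal axis) of S100A6, S100A4 and S100A2, after each cell was thinned to 5000 UMIs. Lines are samples. The S100A6 curves of the FOSL1 samples are shifted as a whole, with medians of 22 to 24 UMIs against 12 and 15 in the controls, and for S100A2 the HA FOSL1 curve runs under that of its control at low counts and above it from 10 UMIs.

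S100A2, the basal epithelial member, was higher with both guides and not in the HA arm. It stood at 273 CPM in the HA control, 266 in HA FOSL1, 171 in the VPR control, 437 under gRNA2 and 482 under gRNA3. Both guide samples lay above all 3 others, and the VPR control was the lowest. The ratios were -0.04 (-0.07 to -0.002) in the HA arm, 1.35 (1.31 to 1.39) with gRNA2 and 1.49 (1.45 to 1.52) with gRNA3. Among all genes at 20 CPM S100A2 ranked 9th with gRNA2 and 8th with gRNA3, but 3281st in the HA arm. Its size depends on the control, since the VPR control lay 0.67 below the HA control (interval -0.71 to -0.63), 7th from the lowest of 5726 genes. Against the HA control the guide ratios were 0.68 and 0.82, and HA FOSL1 against the VPR control gave 0.63. The model over all arms gave S100A2 0.80 (SE 0.34, edgeR adjusted p = 0.211), and without HA FOSL1 1.45 (adjusted p = 2.27e-07, range over the alternatives 2.27e-07 to 0.473). That last fit sets 2 guide samples against 1 control, so its spread is that between the guides and does not hold the difference between the controls.

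The near-equal means of S100A2 in both HA samples went with different spreads over cells. Among thinned cells, 54.1% of those in the HA control had a UMI (95% exact interval 52.4% to 55.7%), as had 51.9% in HA FOSL1 (49.5% to 54.2%). The VPR control had 44.8%, gRNA2 cells 74.0% and gRNA3 cells 76.1%. A count of at least 10 UMIs was reached by 0.891% of cells in the HA control (0.602% to 1.27%), whereas 2.64% reached it in HA FOSL1 (1.95% to 3.49%). The top 5% of cells held 30.4% of S100A2 UMIs in the HA control, 41.4% in HA FOSL1 and 33.7% in the VPR control, but 21.6% and 21.4% with the guides, where the gene was spread over more cells. In HA FOSL1 the cells at 10 or more numbered 48, and the other 1770 cells had S100A2 at 199.9 CPM, against 248 CPM in the like cells of the HA control. With near-equal means, a larger tail leaves a lower rest, so this restates the tail and is no separate result. Those 48 cells, which were picked by their S100A2 count, had S100A4 at 1600.0 CPM against 910.1 in the rest and S100A3 at 95.8 against 48.5, with a median of 17808.5 UMIs against 20847.5. S100A9 stood at 95.8 CPM in them against 798 in the rest, and S100A8 at 0 UMIs against 123 CPM. Such cells had less S100A9 in every other sample too. It stood at 1007 against 1583 CPM in the HA control and 1600 against 2078 in the VPR control (11 cells). With gRNA2 it was 296 against 599 and with gRNA3 553 against 669 CPM. The higher S100A4 and S100A3 in such cells did not hold in every sample: in the HA control S100A4 was 227 against 270.1 CPM and S100A3 0 UMIs against 16.7 CPM (30 cells), and with gRNA2 they were 496 against 692 and 34.8 against 38.5 CPM (46 cells). With gRNA3 they were 972 against 801 and 50.9 against 38.4 CPM (106 cells).

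S100A10, the partner of annexin A2, was higher in every FOSL1 sample, and against its own control past 1.5-fold only in the HA arm. Its level was 781 CPM in the HA control, 1527 in HA FOSL1, 907 in the VPR control, 1250.0 under gRNA2 and 1215 under gRNA3. Every FOSL1 sample lay above both controls here too, again without a count over all genes. The ratios were 0.97 (0.95 to 0.98), 0.46 (0.44 to 0.48) and 0.42 (0.40 to 0.44), and the model gave 0.69 (SE 0.12, edgeR adjusted p = 0.0667). Against the HA control the guide ratios were 0.68 and 0.64, past 1.5-fold. Annexin A2 (ANXA2) itself stood at 809, 1406, 863, 1112 and 1100.4 CPM in the same order of samples, so S100A10 per ANXA2 tag was 0.966 in the HA control, 1.09 in HA FOSL1, 1.05 in the VPR control, 1.12 under gRNA2 and 1.10 under gRNA3. RNA tags of both genes were thus higher in each FOSL1 sample than in its control, at nearly equal numbers. Protein and the complex were not measured. Cell by cell within a sample, Spearman's rho between these genes was 0.09 to 0.17.

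A list of 21 S100 partners and receptors held 14 genes at 20 CPM. Of these, 3 were at least 1.5-fold higher in the HA arm (5.97% of all genes) and 0 with either guide (0.921% and 0.958%), 0 were lower, and their median log2 ratio was 0.31 for HA, 0.06 for gRNA2 and 0.005 for gRNA3. The 3 were ANXA2 (0.80, 0.36 and 0.35), ANXA1, the partner of S100A11 (0.94, 0.37 and 0.39), and AHNAK, a giant scaffold protein bound by S100A10 and annexin A2 (1.26, 0.51 and 0.52). In the edgeR model 0 of the 3 passed (adjusted p = 0.0702, 0.0779 and 0.0751), and in DESeq2 3 of 3 did. The S100P partner ezrin (EZR) had ratios of 0.42, 0.18 and 0.13, the urokinase receptor PLAUR 0.38, 0.20 and 0.29, and the helicase-like factor HLTF -0.43, -0.09 and -0.16. The edgeR model called 0 of 20 fitted partners higher (DESeq2 5 of 21, beside 4.79% of all genes, and edgeR 7 at an unadjusted p under 0.05, which with 3 lower makes 10 of 20 beside the 4020 of 15439 of all genes) and 1 lower, ANXA6, at 8.72, 5.35, 7.62, 4.43 and 4.46 CPM in the 5 samples (log2 -0.72, edgeR adjusted p = 0.0402). Of 11 annexins, 10 were fitted, and besides ANXA6 the model called ANXA8 higher by 0.83 (edgeR adjusted p = 0.0363), a gene at 4.98 to 9.39 CPM. Over all genes this model called 0.9% higher and 0.706% lower.

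S100P and S100A11 set the HA arm apart in another way. S100P, the ezrin ligand on chromosome 4 (chr4:6693878-6697170), stood at 8.05 CPM in the HA control, 24.3 in HA FOSL1, 7.59 in the VPR control, 10.5 under gRNA2 and 9.49 under gRNA3. HA FOSL1 stands alone, and the guide samples lie close above both controls. The ratios were 1.48 (1.34 to 1.63), 0.42 (0.24 to 0.60) and 0.29 (0.12 to 0.45), and the model gave 0.94 (SE 0.28, edgeR adjusted p = 0.124). S100A11 stood at 1342, 1882, 1452, 1463 and 1478 CPM in the same order. With the guides it lay within 0.03 log2 units of the VPR control, at ratios of 0.01 (-0.004 to 0.03) and 0.03 (0.01 to 0.04), beside 0.49 (0.47 to 0.50) in the HA arm. Its adjusted p in the edgeR model was 0.242. RefSeq names 10 pseudogenes of S100A11 with which reads could be shared.

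The epithelial S100A16 was slightly higher in each arm, at 494 CPM in the HA control, 659 in HA FOSL1, 531 in the VPR control, 607 under gRNA2 and 606 under gRNA3. Its ratios were 0.41, 0.19 and 0.19, and the model gave 0.31 (SE 0.07, edgeR adjusted p = 0.0792). S100A13, the export factor, stood at 346 CPM in the HA control, 407 in HA FOSL1, 398 in the VPR control, 424 under gRNA2 and 418 under gRNA3. Its ratios of 0.23, 0.09 and 0.07 stand beside 0.20 between the controls. S100A14 was the steadiest of the 10, at 344, 359.8, 367, 356 and 351 CPM, with ratios of 0.07, -0.04 and -0.06 and a model estimate of 0.02 (edgeR adjusted p = 0.812). The S100A13 gene overlaps S100A1 (0.666 to 1.27 CPM) and CHTOP (73.1 to 77.4 CPM), and the sources used here do not say how tags in such overlaps were counted.

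Whether the FOSL1 effect differed between the systems was asked with an interaction term (edgeR, 1 residual degree of freedom, so that the spread comes from the 2 guide samples alone). A shift of 1 control or of HA FOSL1, each a single sample, cannot be told apart from a different effect in this test. It called 8 of the 10 genes, 7 with a negative term (VPR minus HA, 8.37% of all genes) and 1, S100A2, with a positive one (3.81%). These shares go by sign, so the first also counts genes lowered further in VPR, such as S100A8 and S100A9. For S100A2 the VPR effect exceeded the HA effect by 1.44 log2 (SE 0.09, edgeR adjusted p = 3.57e-06). The HA effect was larger for S100P (VPR minus HA -1.23, adjusted p = 0.000151), S100A3 (-0.79, 0.00022), S100A4 (-0.69, 0.00113), S100A10 (-0.55, 0.000157), S100A11 (-0.49, 0.000313), S100A6 (-0.45, 0.000453) and S100A16 (-0.25, 0.0233), all by edgeR. S100A13 (-0.18, adjusted p = 0.0997) and S100A14 (-0.14, adjusted p = 0.183) did not pass. DESeq2 called 6 of the 10 (2.86% of all genes with a negative term and 0.764% with a positive one). DESeq2 did not call S100A4 (adjusted p = 0.192, range over the alternatives 1.04e-14 to 0.192) or S100A16 (0.0657, range 0.00856 to 0.0657).

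Along chromosome 1 the ratios changed with position. In order of coordinate, S100A10 (chr1:151982915-151993859) and S100A11 (chr1:152032506-152037004) come before the skin differentiation genes, and after these follow S100A9, S100A8 and S100A7, and then S100A6, S100A4, S100A3, S100A2, S100A16, S100A14 and S100A13. S100A7, S100A8 and S100A9 were lower than their controls in every arm, at -0.27, -2.24 and -2.001 for S100A7, -1.23, -2.56 and -2.35 for S100A8, and -1.12, -1.80 and -1.63 for S100A9. The next gene, S100A6, already had a ratio of at least 0.63 in each arm, and its neighbours S100A4 and S100A3 had the highest ratios of the cluster in the HA arm. S100A5, which lies between S100A6 and S100A4 and overlaps S100A4 by 65 bases, was scarce (0.509 to 3.21 CPM) and had ratios of 1.48, 0.63 and 0.82. After S100A2 come S100A16, S100A14 and S100A13, with ratios of at most 0.41. Of 13 genes that flank the S100 genes, 6 were at 20 CPM and 0 of these lay 1.5-fold from the control in any arm. Of 33 genes of the epidermal differentiation complex listed, 13 had a UMI and 1 reached 20 CPM, TCHH, the hair follicle protein trichohyalin, at 1.00, 0.45 and 0.36. RefSeq places S100A3 and S100A6 wholly within loci of long non-coding RNAs.

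**Figure D4:**
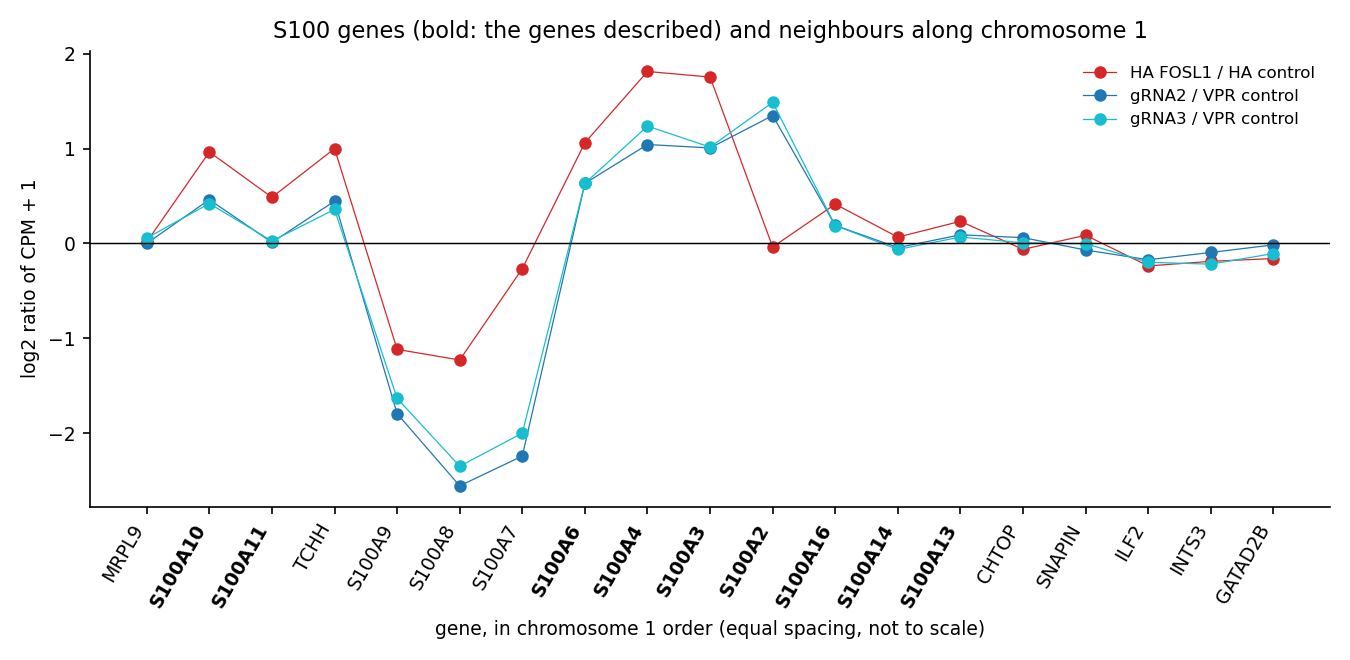
Log2 ratio of CPM + 1 (vertical axis) of the S100 genes and their neighbours at a mean of at least 20 CPM, in chromosome 1 order at equal spacing. Colours are the 3 arms and bold names the genes described. Ratios are below 0 from S100A9 to S100A7, at least 0.63 from S100A6 to S100A3 in every arm, and near 0 beyond S100A13.

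The share of cells with a UMI told little for most of these genes, because without thinning S100A6, S100A10, S100A11, S100A13, S100A14 and S100A16 were found in at least 97.6% of cells in every sample. S100A4 was found in 92.6% to 98.6% of cells. The rarer genes showed clearer steps. S100A3 was seen in 21.5% of HA control and 59.3% of HA FOSL1 cells, and in 25.5%, 45.4% and 46.6% of the VPR control, gRNA2 and gRNA3 cells. In cells thinned to 5000 UMIs these shares were 7.81% (6.93% to 8.77%), 20.6% (18.8% to 22.6%), 8.19% (7.17% to 9.32%), 16.9% (15.5% to 18.5%) and 16.6% (15.5% to 17.7%). S100P was found in 4.13%, 10.2%, 3.59%, 4.26% and 4.01% of thinned cells, so that only HA FOSL1 stood apart (9.62%, 25.4%, 9.25%, 11.7% and 11.3% without thinning).

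The pool holds no cell type that lacks these genes, so free RNA was judged from empty droplets, where S100A3 stood at 43.1 CPM and S100P at 17.04. If free RNA gave 5% of a cell's UMIs, it would put a UMI of S100A3 in 1.07% and of S100P in 0.425% of thinned cells, under every measured share. For S100A2 and S100A4 the same figure is 11.001% and 18.3%, against thinned shares of 44.8% to 76.1% and 67.2% to 88.7%. For the abundant S100A10, S100A11 and S100A6 it is 33.3%, 45.0% and 77.4%, so a single UMI tells little for these. For S100A6 that is 1.49 free UMIs per thinned cell, beside medians of 12 to 24 UMIs in the samples. With 5% free RNA taken off, the counts of genes at 1.5-fold were unchanged at 4 in each arm.

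Within each sample, cells were also split by cell cycle phase and by whether a FOSL1 UMI was seen. Phase shares were close between samples, with 18.8% to 21.2% of cells called G1, 36.4% to 43.2% S and 37.1% to 42.4% G2M. S100P was lower in G2M than in G1 cells in 5 of 5 samples, by -0.52 to -1.01 log2, and so were S100A14 (-0.23 to -0.40), S100A11 (-0.21 to -0.38) and S100A6 (-0.09 to -0.27). The share of all genes that were lower in G2M cells of every sample was not counted. For S100P in the VPR control the counting intervals overlap, at 7.56 to 16.5 CPM in G1 and 5.42 to 10.4 in G2M cells. S100A3 was higher in G2M cells in 5 of 5 samples (0.11 to 0.26), but its G1 and G2M counting intervals overlap in each. In the VPR control these were 13.7 to 24.9 CPM in G1 and 17.3 to 25.5 CPM in G2M cells. S100A2 was 0.60 higher in G2M than in G1 cells of HA FOSL1 (306 against 201 CPM), whereas the other samples ran from -0.17 to 0.10. Compared within 1 phase, the HA ratio of S100A2 was -0.46 in G1, 0.05 in S and 0.24 in G2M cells, and its guide ratios were between 1.26 and 1.59 in every phase. S100A4 in the HA arm had ratios of 1.44 in G1, 1.86 in S and 1.89 in G2M cells.

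Cells with a FOSL1 UMI had more S100A3 than cells without in 5 of 5 samples (0.30 to 0.76 log2). In the controls this rests on few UMIs, and the counting intervals overlap. The HA control had 18 UMIs in 129 such cells (16.5 to 44.1 CPM, against 14.2 to 18.1 in the rest). The VPR control had 12 UMIs in 93 such cells (13.3 to 45.1 CPM, against 15.6 to 20.4). S100A4 was higher in such cells in 5 of 5 samples too, by 0.12 to 0.60, with the largest value in HA FOSL1 (1273 CPM in 365 cells against 842 CPM in 1453 cells). S100A2 was 0.67 higher in the 129 such cells of the HA control and 0.06 to 0.42 higher in the other samples. S100A10 was higher by 0.06 to 0.33 in 5 of 5 samples. So were S100A6 (0.005 to 0.21), S100A11 (0.02 to 0.07) and S100A13 (0.02 to 0.08). For S100A11 and S100A13 the counting intervals of cells with and without a FOSL1 UMI overlap in every sample. They also overlap for S100A6 in both controls and for S100A4 in the VPR control. The same holds for S100A2 in the VPR control and with gRNA2, and for S100A10 in HA FOSL1. S100A14 was lower in 4 of 5 samples, and the same split was not counted over all genes. Cells of 1 sample are not replicates, free RNA adds FOSL1 UMIs to cells that lack it, and a FOSL1 UMI is missed in many cells at this depth, so these values describe the samples without a test.

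**Figure D5:**
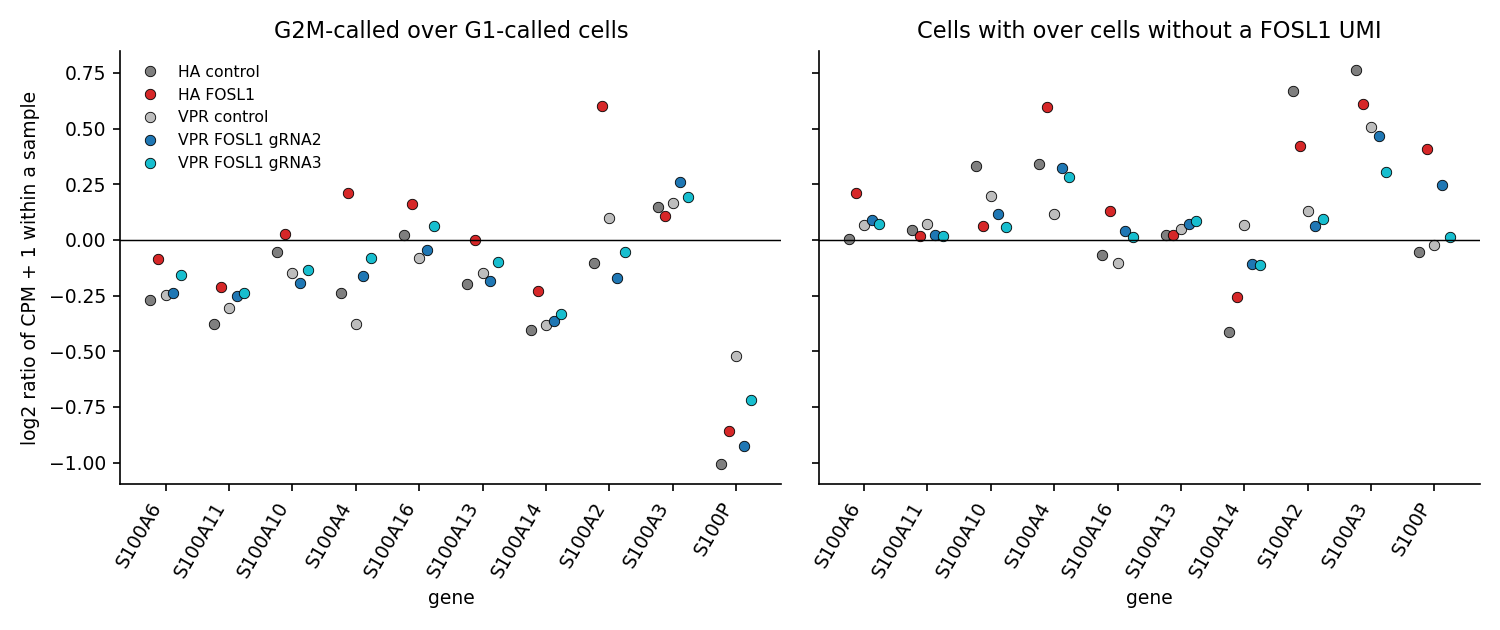
Log2 ratio of CPM + 1 within each sample (vertical axis), for cells called G2M over cells called G1 (left) and cells with over cells without a FOSL1 UMI (right), all thinned to 5000 UMIs. Points are the 5 samples. S100P is lower in G2M cells of every sample, with counting intervals that overlap in the VPR control. S100A3 is higher in cells with a FOSL1 UMI in every sample, with counting intervals that overlap in both controls.

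Genes whose ratios over the 3 arms were nearest to each S100 gene were found by Euclidean distance among genes at 20 CPM, with 5 taken for each. For S100A3 the nearest was the protease gene KLK10 (distance 0.08 log2 units), with S100A4 among the next (0.23). KLK10 was also nearest to S100A4 (0.17), ahead of the keratin KRT16 (0.22), S100A3 (0.23), AKR1B1 (0.28) and DKK1 (0.35). For S100A3 the list went on with AC027031.2 (0.15), ELL2 (0.31) and NEXN (0.33). Nearest to S100A6 were the integrin chain ITGA3 (0.06), KMO (0.07), PDLIM1 (0.07), the ferritin heavy chain FTH1 (0.08) and CTNNAL1 (0.09). S100A10 lay closest to SH2D4A (0.05), the laminin chain LAMC1 (0.06), TCHH (0.07), DENND1B (0.09) and EPS8 (0.09). S100P was nearest to OLR1 (0.16), TIMP2 (0.20), FAM3C (0.21), C12orf75 (0.21) and ADIRF (0.23). S100A2 had no close match: the nearest genes, ATP6V0D2 (0.96), ADAMTS1 (0.98), IGSF23 (1.09), FGFBP1 (1.14) and TGFB1 (1.16), all lay farther away than any listed for the other genes.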

How the data were processed

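UMI counts per gene and barcode were deposited by the authors as a raw matrix with empty droplets. Per the submitters' processing notes it was made with Cell Ranger on hg38, and per the file headers with Cell Ranger 4. The deposited assignment table gives each of 21228 called cells a hashtag and an assignment probability, a fraction set by the authors, at least 0.9002 in each assigned cell. The hashtags named GOF were taken as HA by elimination. The labels' protocol speaks of a pool of 6 samples, of which 5 were analysed here.

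Of 15371 assigned cells, 14642 with at least 1500 genes and at most 20% mitochondrial UMIs were kept, and multiplets (5181), unassigned cells (402) and blanks (274) were left out. Doublets within a sample were not called. UMIs were summed per sample, and levels have exact Poisson intervals, shares Clopper-Pearson intervals and ratios of CPM + 1 exact conditional binomial intervals. The scale of CPM + 1 understates ratios of scarce genes. Empty droplets were 48909 barcodes of 10 to 100 UMIs. Counts were fitted with edgeR 4.0.16 (TMM, filterByExpr, Benjamini-Hochberg adjusted p under 0.05), with DESeq2 1.42.0 as an alternative, and fits and ratios were tested on simulated data. Phases were scored with scanpy 1.11.5 and the gene sets of Seurat 5.3.0. Thinning left 14598 cells. From a list, up to 6 genes at 20 CPM or more, averaged over the samples, are named, those with the largest mean absolute ratio. The genes described and the lists were chosen with earlier results of these data known. Alternatives were other pseudocounts, filters, scalings, controls, tools and samples left out.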

Additional observations from a re-analysis of the deposited data

Results flagged for a closer look

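The interaction term for a different FOSL1 effect in the systems (edgeR, VPR minus HA, log2) passed its threshold for 8 of the 10 S100 genes, and for 1958 of 16071 genes in all. For S100A2 it was 1.44. For S100A3 it was -0.79, for S100A4 -0.69, for S100A6 -0.45 and for S100A10 -0.55. For S100A11 it was -0.49, for S100A16 -0.25 and for S100P -1.23. The spread behind these tests comes from the 2 guide samples only, so a shift of 1 control or of HA FOSL1 cannot be told apart from a different effect, and HA FOSL1 also had the deepest cells.

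Empty droplets, which are no sample of the design, held 9 of the 10 S100 genes at a level above both controls. S100A6 at 5955 CPM, S100A11 at 2388, S100A10 at 1618 and S100A13 at 536 CPM lay above all 5 samples too. S100A14, at 369.6 CPM with an interval of 344 to 396, could not be told from the 344 and 367 CPM of the controls.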

How the results depend on the processing

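The model over all arms called 3 S100 genes higher (248 of 15439 genes in all, either direction), 6 with DESeq2 (1116 genes), 6 without a filter on low counts (1984 of 23639), 7 without HA FOSL1 (1804 of 15966) and 0 without either guide sample (0 genes), a range of 0 to 7 over the samples left out. The interaction test called 8 (1958 of 16071 genes), and 6 with DESeq2 (451 genes). The number at 1.5-fold was 4 in each arm under every alternative but 2: with no minimum level it was 5 in the HA arm, and with the control of the other system 5 in each arm, S100A2 being added in the HA arm and S100A10 with the guides. No S100 ratio that was past 1.5-fold against its own control, and no called model estimate, changed sign. S100A2 in the HA arm, near 0 against its own control, ran from -0.24 with a stricter cell filter to 0.63 with the VPR control, and was 0.04 after thinning to 5000 UMIs. S100A14 in the HA arm ran from -0.03 to 0.10 and with the guides from -0.05 to 0.05 and -0.09 to 0.03. S100A4 ran from 1.46 to 1.98 in the HA arm, 0.97 to 1.40 with gRNA2 and 1.19 to 1.59 with gRNA3. S100A6 ran from 0.82 to 1.16, 0.61 to 0.88 and 0.61 to 0.88. The cause of these shifts was not tested. No paired analysis was possible because each group holds 1 sample. S100P and S100A3 rest on the fewest UMIs, 340 and 879 in the VPR control, and their intervals are the widest.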
